A study of Mus musculus with 2 samples.

Results

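Collagens, laminins and elastin are the structural proteins of the extracellular matrix. In all, 56 genes that encode them were examined among the 33696 gene features of a brain dataset of single nuclei or cells. The members were chosen by symbol: every collagen alpha chain (44 genes), every laminin alpha, beta or gamma chain (11 genes) and elastin (1 gene). The study gave the antifungal fluconazole, or vehicle alone (labelled MOCK), in the drinking water for 2 weeks to Shank3-/- mice, which lack a postsynaptic scaffold protein and are used as a model of autism. Prefrontal cortex was taken and each treatment gave 1 library of 10x Genomics 3′ transcript counts. Both groups carried the Shank3 deletion and no Shank3-intact animals were analysed here. The labels do not give the age of the mice, the number pooled into each library or the exons deleted.

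Many cell types build a basement membrane. This is a thin sheet in which a laminin network at the cell surface is joined to a network of type IV collagen. A laminin joins an alpha, a beta and a gamma chain, and type IV collagen is likewise assembled from several related chains. In the brain these sheets wrap the vessels, where endothelium, pericytes and astrocyte endfeet contribute to them, and line the surface below the meninges. Fibrillar collagens and elastic fibres are otherwise sparse in brain and lie mainly in the meninges and in the walls of larger vessels.

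The vehicle library held 14924 barcodes and the fluconazole library 12637, of which 12892 and 10610 were kept. Kept barcodes held 67877915 unique molecular identifiers (UMIs, counted transcript molecules) in the vehicle library and 68918276 in the fluconazole library, with medians of 4327 and 5258 per barcode. Barcodes were grouped into classes by clustering without the member genes and by marker genes that are not members. Each class named here had all of its markers at least 2-fold above the median class. Beside cortical cells the libraries held 518 barcodes with the markers of striatal spiny neurons and 764 with those of neuroblasts, which migrate through the forebrain. Shank3 itself was read at 48.8 counts per 1000000 UMIs (CPM, 95% Poisson interval 47.1 to 50.4) with vehicle and at 53.6 CPM (51.9 to 55.4) with fluconazole. Since 3′ tags can lie outside the deleted part, these values do not check the genotype. The libraries shared 31 kept barcode sequences.

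With 1 library per treatment there is no replicate error. No test was made, and each interval covers counting error only and takes UMIs as independent. Differences are log2 ratios of fluconazole CPM over vehicle CPM within a class, with exact conditional binomial 95% intervals, and were counted where the absolute log2 ratio was at least 0.5 (1.41-fold) for a gene with at least 100 UMIs in the class. CPM values from 3′ tags were compared between classes within a gene, not between genes. The labels disagree on whether barcodes are nuclei alone. Whether such comparisons set whole cells against nuclei was not tested.

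The 56 members held 58967 UMIs in the vehicle library and 59796 in the fluconazole library, 0.087% of the total in each. All were seen. At least 500 UMIs were counted for 32 members, 100 to 499 for 19, 20 to 99 for 4, and 18 for Col6a5, a chain of type VI collagen. Fibroblasts and mural cells held more member UMIs than their share of barcodes, and so did glutamatergic and GABAergic neurons. Fibroblasts made up 1.20% of barcodes and 5.13% of member UMIs, pericytes 2.50% and 6.76%, and smooth muscle cells 1.57% and 3.75%. Glutamatergic neurons made up 14.6% of barcodes and 19.9% of member UMIs, and GABAergic neurons 3.64% and 6.03%. Endothelial cells, at 23.5% and 24.9%, held near their share of barcodes. They stood above it with vehicle (21.8% and 26.1%) and below it with fluconazole (25.6% and 23.7%). Microglia, at 23.7% of barcodes, held 8.22%. These shares do not allow for depth, and endothelial barcodes held medians of 2824 and 3194 UMIs, below those of the libraries. Per UMI, members stood at 1455 and 1198 CPM in endothelial cells, above the 0.087% of all UMIs in each library. Glutamatergic neurons, with deeper barcodes, stood below it at 634 and 658 CPM.

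An additional group of 157 barcodes shared 8 of 10 fibroblast markers at 2-fold or more but also 6 of 9 astrocyte and 5 of 8 endothelial markers, and was left unnamed. Its leading genes were Slc47a1, Bnc2, Prdm6 and Eya2, and it is called the Slc47a1 cluster below. It made up 0.668% of barcodes and 2.98% of member UMIs. Astrocyte markers summed to 1355 and 1226 CPM in this cluster (vehicle and fluconazole), less than in the class named fibroblasts, as given below. Of the 32 members with at least 500 UMIs, 9 had their highest CPM in fibroblasts, 9 in the Slc47a1 cluster, 8 in pericytes and 2 in smooth muscle cells, with the endothelium taken as 1 class. The remaining 4 peaked in astrocytes (Lama3), microglia (Col27a1), GABAergic neurons (Col19a1) and oligodendrocyte precursors (Col9a3). The class with the highest CPM was the same in both libraries for 27 of the 32. The highest level of the other 24 members, over both libraries together, ran from 0.477 CPM (Col6a5 in GABAergic neurons) to 288 CPM (Col1a1 in fibroblasts). Of these, Col13a1, Col6a2, Lamb3, Col1a1, Col4a3 and Col6a6 are described by level below and were chosen after their values were seen, the last 3 also passing the threshold between libraries in a class.

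**Figure D1:**
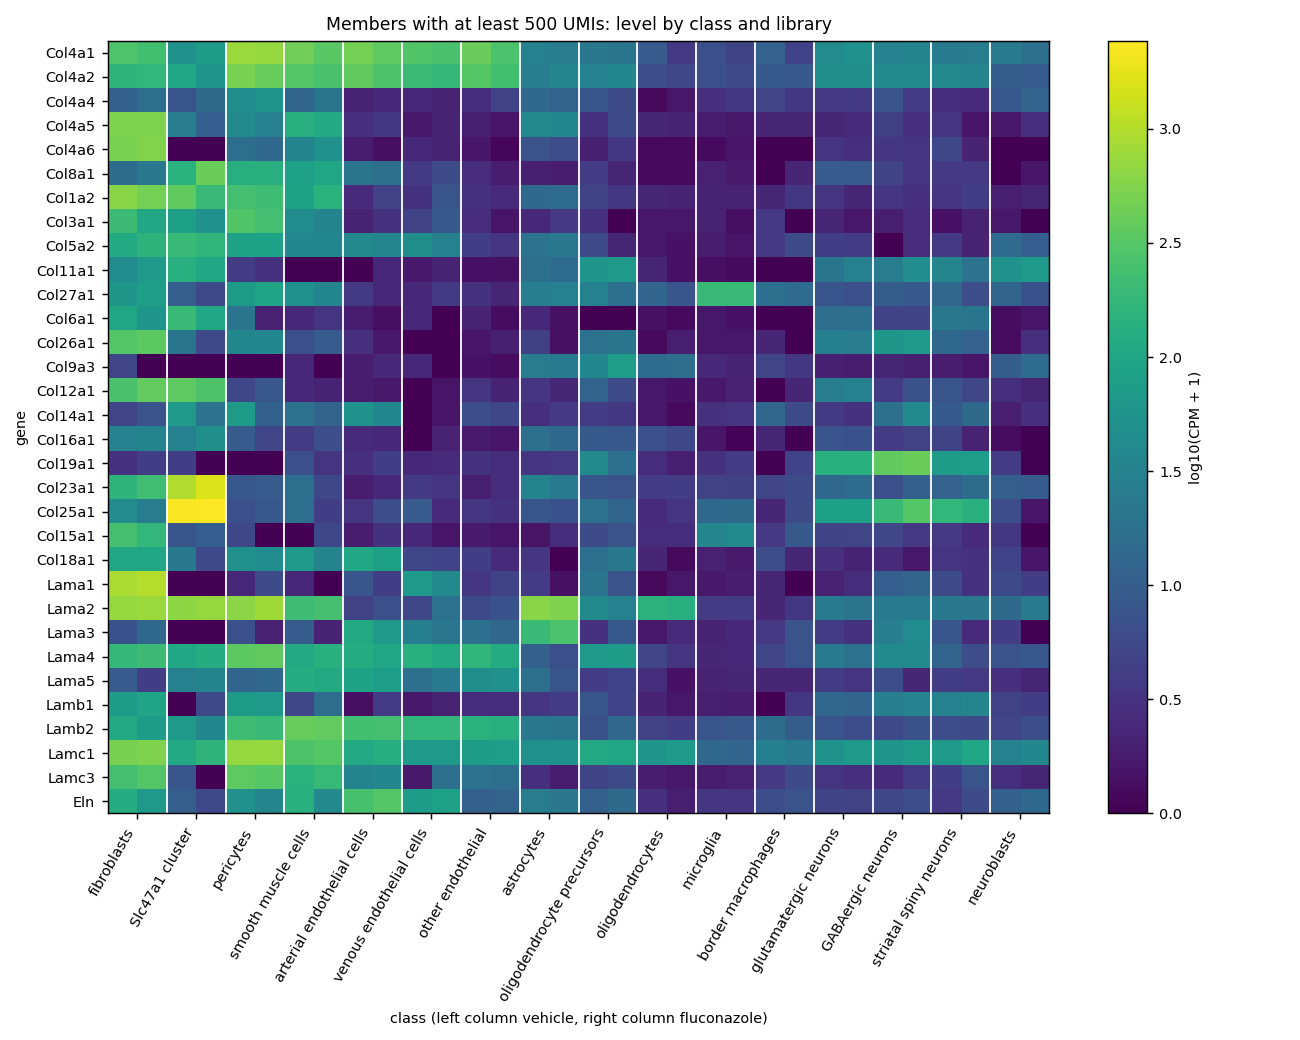
Level of each member with at least 500 UMIs (rows) in each class (column pairs, vehicle left and fluconazole right), as log10(CPM + 1). Lama1, Col4a5 and Col4a6 are bright in fibroblasts, Col25a1 and Col23a1 in the Slc47a1 cluster, Lama3 in astrocytes and Col27a1 in microglia, in both libraries.

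Of the network collagens, Col4a1 and Col4a2, the chains of the common type IV trimer found in nearly every basement membrane, were highest in pericytes. Col4a1 stood at 756 CPM (693 to 824) in vehicle pericytes and 699 CPM (647 to 754) in fluconazole pericytes, against 450 and 331 in smooth muscle cells, 408 and 286 in endothelial cells and 284 and 226 in fibroblasts. Col4a2 stood at 513 and 398 CPM in pericytes and 311 and 254 CPM in smooth muscle cells. Pericytes were the highest class in each library for both genes. In microglia, which do not build a basement membrane and served as the background class, Col4a1 stood at 5.66 and 3.97 CPM. A Col4a1 UMI was found in 73.3% and 73.2% of pericyte barcodes (median depth 2155 and 2830 UMIs) as against 2.62% and 2.44% in microglia (median depth 4593 and 5992). After thinning to 1500 UMIs per barcode the shares were 57.6% and 55.1% against 0.513% and 0.633%.

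The genes of this pair lie head to head on chromosome 8. In the RefSeq promoter table (GRCm38.p6, 250 bases before to 50 after a start), the windows of Col4a2 on the forward strand and Col4a1 on the reverse strand share 78 bases, chr8:11312777-11312854. Col4a1 UMIs per Col4a2 UMI were 1.48 (1.29 to 1.69) and 1.76 (1.55 to 1.997) in vehicle and fluconazole pericytes, and 1.32 (1.26 to 1.38) and 1.23 (1.17 to 1.29) in endothelial cells. In glutamatergic neurons the ratio was 0.907 (0.819 to 1.005) and 1.04 (0.954 to 1.14), below the endothelial interval in both libraries.

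Col4a5 and Col4a6, also arranged head to head but on the X chromosome, encode chains of a further type IV trimer and were concentrated in fibroblasts. Their upstream sequences are shown because both genes peaked in the same class. Bases that GENCODE places in an exon are left out. Capitals mark CCAAT (the CCAAT box), GGGCGG (the GC box) or TATAAA (the TATA box) on either strand, and none of the marked matches overlaps another.
Col4a5 (chrX:141475169-141475384, forward strand, RefSeq, GRCm38.p6): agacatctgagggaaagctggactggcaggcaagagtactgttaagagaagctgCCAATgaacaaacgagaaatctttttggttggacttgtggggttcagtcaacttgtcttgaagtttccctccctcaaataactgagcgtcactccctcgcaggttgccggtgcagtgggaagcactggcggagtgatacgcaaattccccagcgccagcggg
Col4a6 (chrX:141474077-141474326, reverse strand, RefSeq, GRCm38.p6): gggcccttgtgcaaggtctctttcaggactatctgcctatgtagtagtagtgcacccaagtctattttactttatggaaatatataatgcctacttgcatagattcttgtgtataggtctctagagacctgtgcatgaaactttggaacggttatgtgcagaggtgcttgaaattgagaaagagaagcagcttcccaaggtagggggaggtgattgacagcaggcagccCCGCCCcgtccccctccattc

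The printed Col4a5 stretch holds 1 CCAAT match and the Col4a6 stretch 1 GC box match on the other strand, with no TATAAA in either. Over the full 300-base windows, CCAAT occurred in 37.4% of all 32851 windows and in 14 of the 44 windows of the 40 members in the table. The GC box occurred in 35.7% of all windows and in 26 of the 44, and TATAAA in 13.6% and in 5 of the 44. A match describes letters only.

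Col4a5 stood at 541 CPM (477 to 611) in vehicle fibroblasts and 542 CPM (464 to 629) in fluconazole fibroblasts, and Col4a6 at 512 CPM (450 to 580) and 548 CPM (470 to 636). For either gene the libraries lay within counting error of each other. In smooth muscle cells Col4a5 reached 134 and 115 CPM, and Col4a6 33.2 and 50.4 CPM. The UMI ratio of Col4a5 to Col4a6 was 1.06 (0.885 to 1.26) and 0.989 (0.797 to 1.23) in fibroblasts and 4.04 (2.54 to 6.69) and 2.28 (1.60 to 3.30) in smooth muscle cells. The pair was thus near parity by UMI in fibroblasts and tilted to Col4a5 in smooth muscle, in both libraries. The Slc47a1 cluster had no Col4a6 UMI among 526174, which allows up to 5.70 CPM.

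Col4a3 and Col4a4, whose products join Col4a5 in the trimer of the kidney filter, were highest in pericytes. Col4a4 stood at 45.0 and 55.2 CPM there. Col4a3 was not seen in fibroblasts, where 0 of 801781 UMIs allows up to 3.74 CPM. Col8a1, a short-chain network collagen of vessel walls, stood at 135 and 134 CPM in pericytes, 85.1 and 101 CPM in smooth muscle cells, and 146 and 424 CPM in the Slc47a1 cluster.

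Fibrillar collagens form the banded fibres of connective tissue, and their chains peaked in different classes. Col1a1 and Col1a2 encode the chains of type I collagen. Col1a2 stood at 605 and 473 CPM in vehicle and fluconazole fibroblasts, at 365 and 194 CPM in the Slc47a1 cluster and at 232 and 214 CPM in pericytes. Col1a1 was highest in fibroblasts (332 and 222 CPM) and the Slc47a1 cluster (171 and 78.4 CPM), with 26.1 and 11.5 CPM in pericytes. Astrocytes held it at 10.6 CPM over both libraries, and fibroblasts held 46.8% of its UMIs. Per Col1a2 UMI there were 0.548 (0.449 to 0.667) and 0.470 (0.350 to 0.627) Col1a1 UMIs in fibroblasts against 0.113 (0.0650 to 0.184) and 0.0537 (0.0264 to 0.0981) in pericytes. The chain balance of these classes, each taken whole, thus differed beyond counting error in each library. The pericyte ratio pools clusters that were unlike in Col1a1, as given below.

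Col3a1, the type III chain of distensible tissues, appeared highest in pericytes (290 and 237 CPM) and then in fibroblasts (211 and 107 CPM). The pericyte class was made of 2 clusters. The larger, 212 and 247 barcodes led by Abcc9 and Atp13a5, held Col3a1 at 75.9 and 47.9 CPM. The smaller, 73 and 55 barcodes led by Ccl19, Cxcl1 and Anxa1, held it at 765 and 917 CPM. Elastin was divided the same way, at 4.22 and 1.33 CPM in the larger cluster and 154 and 149 CPM in the smaller, as was Col8a1, at 71.7 and 73.2 CPM against 275 and 355 CPM. Acta2, a smooth muscle marker, stood at 78.0 and 42.6 CPM in the larger cluster and 1520 and 1742 CPM in the smaller. The clusters differed in the other direction for Lama2 (748 and 915 CPM in the larger, 378 and 355 CPM in the smaller) and Col4a3 (67.5 and 133 CPM in the larger, 9.33 and 4.80 CPM in the smaller). Col1a1 had 1 and 0 UMIs in the larger cluster, beside 87 and 147 for Col1a2. In the smaller cluster Col1a1 had 17 and 11 UMIs, beside 73 and 58 for Col1a2.

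Among other fibrillar chains, Col5a2, which regulates fibre diameter, stood at 188 and 166 CPM in the Slc47a1 cluster and 116 and 154 CPM in fibroblasts. Col11a1 was spread over that cluster (133 and 106 CPM), oligodendrocyte precursors (58.9 and 67.4 CPM) and neuroblasts (53.6 and 65.6 CPM). Col27a1, a fibrillar collagen known from cartilage, was the microglial member. Its level was 199 CPM in vehicle and 188 CPM in fluconazole microglia, with a UMI in 56.8% and 63.6% of their barcodes, against 16.1 and 14.2 CPM in border macrophages. Microglia held 82.0% of all Col27a1 UMIs.

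Microfibril, interrupted-helix and transmembrane collagens marked further classes. Col26a1 and Col13a1, a transmembrane collagen of cell contacts, were highest in fibroblasts, Col26a1 at 301 and 335 CPM and Col13a1 at 253 and 316 CPM. Col13a1 in pericytes rested on 3 UMIs in all. Col12a1, which decorates type I fibres, was shared by fibroblasts (255 and 376 CPM) and the Slc47a1 cluster (356 and 272 CPM). Col19a1 was led by GABAergic neurons (362 and 421 CPM), ahead of glutamatergic (139 and 142 CPM) and spiny neurons (72.6 and 78.7 CPM), with 2.17 and 2.89 CPM in microglia. It encodes an interrupted-helix collagen made by interneurons. Col6a1 and Col6a2, partner chains of the type VI microfibril, stood at 194 and 106 CPM and at 184 and 106 CPM in the Slc47a1 cluster, with Col6a1 at 99.5 and 59.5 CPM in fibroblasts. Glutamatergic neurons read Col6a1 at only 15.1 and 16.1 CPM but held 60.1% of its UMIs. Col14a1 had no steady leading class: pericytes held 68.2 and 10.4 CPM, the Slc47a1 cluster 64.7 and 18.4 CPM, arterial endothelium 51.8 and 37.1 CPM and GABAergic neurons 16.8 and 41.0 CPM. Col9a3, a cartilage-type chain, was led by oligodendrocyte precursors at 36.9 and 76.1 CPM from 37 and 61 UMIs. Col16a1 stood at 31.1 and 31.3 CPM in fibroblasts and 29.1 and 46.1 CPM in the Slc47a1 cluster.

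Col25a1, a transmembrane collagen whose shed part is found in amyloid plaques, and Col23a1, a further transmembrane chain, led the Slc47a1 cluster. Col25a1 stood there at 2306 and 2430 CPM, with a UMI in 64.7% and 74.5% of barcodes, against 194 and 307 CPM in GABAergic, 173 and 141 CPM in spiny and 82.1 and 79.8 CPM in glutamatergic neurons. Transmembrane collagens made up 50.2% and 58.3% of the member UMIs of this cluster but 6.01% and 7.36% of those of fibroblasts. Glutamatergic neurons, being numerous, nevertheless held the most Col25a1 UMIs (39.8%). The multiplexins Col15a1 and Col18a1, basement membrane collagens that release anti-angiogenic fragments, were highest in fibroblasts at 245 and 175 CPM and at 108 and 97.1 CPM. Col15a1 also reached 34.2 and 40.5 CPM in microglia, and Col18a1 reached 102 and 81.8 CPM in arterial endothelium.

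**Figure D2:**
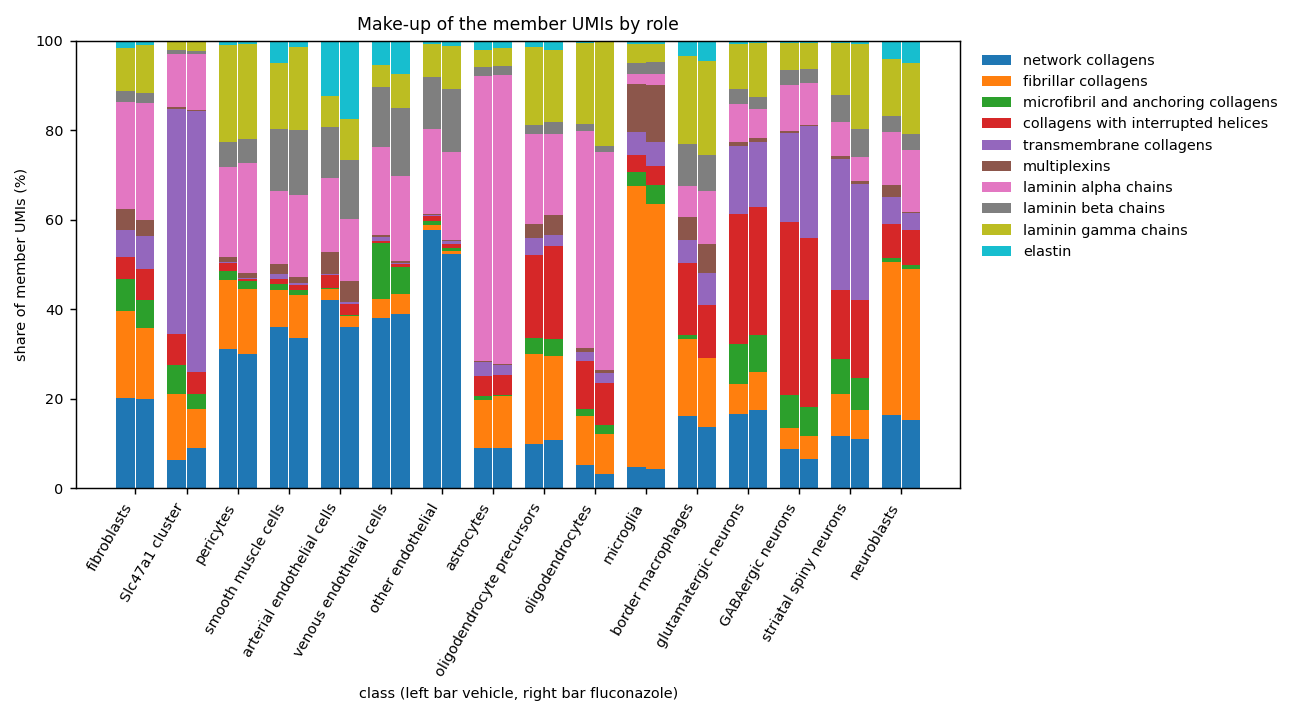
Share of the member UMIs of each class (column pairs, vehicle left and fluconazole right) by role, in percent. Network collagens took 57.8% and 52.3% in endothelium that was neither arterial nor venous (other endothelial), laminin alpha chains 63.6% and 64.6% in astrocytes, and transmembrane collagens 50.2% and 58.3% in the Slc47a1 cluster.

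The laminin alpha chains differed in the classes that led them. Lama1, the chain of early embryonic and meningeal membranes, stood at 889 CPM (64.0% of barcodes) and 1031 CPM (64.4%) in fibroblasts and at 67.5 and 40.0 CPM in venous endothelium. Pericytes held it at 1.45 and 5.21 CPM, near the microglial 0.724 and 0.874 CPM, and the Slc47a1 cluster had none, which allows up to 5.70 CPM. Lama2, the chain lost in merosin-deficient muscular dystrophy, was shared by fibroblasts (715 and 743 CPM), pericytes (633 and 794 CPM), the Slc47a1 cluster (640 and 715 CPM) and astrocytes (608 and 537 CPM). In the fluconazole library the astrocyte interval (508 to 568) lay below those of fibroblasts (651 to 843) and pericytes (738 to 852), and in the vehicle library the astrocyte interval (575 to 643) overlapped the pericyte interval (575 to 695). Which of fibroblasts and pericytes stood higher differed between the libraries. Oligodendrocytes followed at 149 and 136 CPM.

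Lama3, known from epithelial anchoring complexes, was highest in astrocytes (190 and 270 CPM) and then in arterial endothelium (112 and 67.1 CPM). Lama4, the common vascular alpha chain, stood at 344 and 365 CPM in pericytes, 178 and 207 CPM in fibroblasts and 155 and 115 CPM in endothelial cells. Lama5, the other alpha chain of mature vessels, was led by smooth muscle cells (123 and 114 CPM) and arterial endothelium (90.1 and 75.0 CPM), with 11.6 and 12.5 CPM in pericytes.

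The partners of these chains were more widely shared. Lamb2, the mature vascular beta chain, stood at 401 and 375 CPM in smooth muscle cells, 213 and 192 CPM in pericytes and 169 and 165 CPM in endothelial cells. Lamb1, its developmental counterpart, was highest in fibroblasts at 72.5 and 93.98 CPM, level with pericytes at 68.2 and 65.6 CPM within counting error. Lamc1, the gamma chain of most laminins, was found in every class, from 717 and 700 CPM in pericytes to 12.8 and 11.6 CPM in microglia. Lamc3 was largely mural and fibroblastic, at 356 and 321 CPM in pericytes, 234 and 301 CPM in fibroblasts and 144 and 184 CPM in smooth muscle cells. Lamb3, a beta chain of epithelial laminins, was scarce and did not pass 3.66 CPM in any class with both libraries together.

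Elastin, the rubber-like core of elastic fibres, was highest in arterial endothelium among the classes and endothelial subsets. It stood there at 251 CPM (28.9% of barcodes) with vehicle and 314 CPM (35.6%) with fluconazole. Venous endothelium stood at 70.3 and 85.4 CPM and the remaining endothelium at 9.78 and 10.9 CPM. This order of arterial, venous and other endothelium, each taken whole, was the same in both libraries, with no overlap of intervals. The arterial subset was uneven. Its cluster led by Alpl, Edn1 and Cd200l1 (329 and 305 barcodes) held elastin at 72.3 and 84.9 CPM, near the venous level. Its cluster led by Gkn3, Mgp and Bmx (293 and 302 barcodes) held elastin at 342 and 426 CPM. Fibroblasts held elastin at 124 and 65.8 CPM, smooth muscle cells at 141 and 38.4 CPM and microglia at 2.44 and 2.35 CPM.

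**Figure D3:**
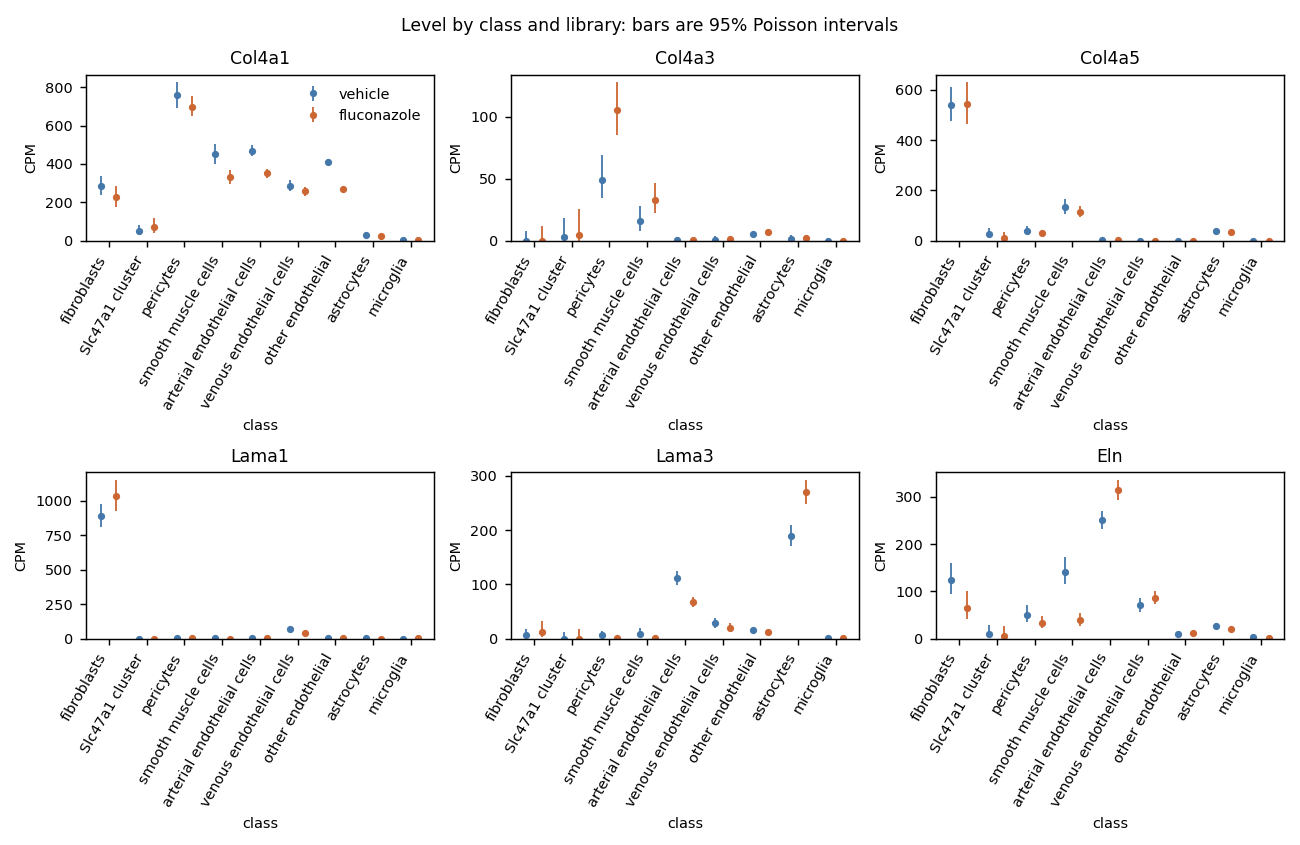
CPM (y axis, from 0) of 6 members in 9 classes (x axis) of the vessel wall, meninges and glia, with 95% Poisson intervals for counting error. Elastin is highest in arterial endothelium in both libraries, while in smooth muscle cells it stands at 141 CPM in the vehicle and 38.4 CPM in the fluconazole library.

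Fluconazole and vehicle were then compared within each class. In fibroblasts (178 and 104 barcodes) the summed member level was 7547 CPM in the vehicle library and 7663 CPM under fluconazole (log2 ratio 0.02, -0.05 to 0.10). Of 18 members measured, 1 was higher and 2 were lower past the threshold. Of the 1773 genes measured in this class 8.69% were higher and 13.8% lower, so the share of members was not above the background. Their median log2 ratio was 0.11, beside 0.06 for all genes measured. Requiring at most 1% mitochondrial UMIs brought the sum to -0.41, with a class of 287 barcodes of which 88 came from the Slc47a1 cluster.

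The lower fibroblast members were type I and III chains. Col1a1 had 160 and 71 UMIs (log2 ratio -0.58, upper bound -0.16). It turned to 0.25 with at most 1% mitochondrial UMIs and was -0.23 after thinning. Col3a1 had 102 and 34 UMIs (-0.99, -1.59 to -0.42), and 24.5% of its vehicle UMIs came from 1 barcode, without which, and without the leading fluconazole barcode, the value was -0.73. Thinning brought it to -0.41. Col12a1 was higher, with 123 and 120 UMIs (0.56, 0.19 to 0.94), and fell short of the threshold with at most 1% mitochondrial UMIs (0.29) and with median-of-ratios scaling (0.496), and was 0.92 after thinning. Basement membrane members lay under the threshold on both sides of 0. Col15a1 was at -0.48 (-0.96 to -0.01), Col4a1 at -0.33, Col4a5 at 0.00, Lama2 at 0.05, Lama1 at 0.21 and Lamc3 at 0.36. With at most 1% mitochondrial UMIs Col4a5 and Col4a6 were both at -0.80, Lama2 at -0.65 and Lama1 at -0.97. Lama1 was -0.14 after thinning. Ribosomal protein genes took 2.56% and 1.52% of fibroblast UMIs. Astrocyte markers summed to 6523 CPM (9 of 9 seen) and 7901 CPM (8 of 9) in this class and smooth muscle markers to 406 CPM (8 of 8) and 182 CPM (6 of 8). Their part in these values was not tested.

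In pericytes (285 and 302 barcodes) the sum was 4977 and 4792 CPM, a log2 ratio of -0.05 (-0.12 to 0.01). Of 14 members measured 1 was higher and 0 were lower past the threshold, beside 3.79% and 3.91% of all genes measured there, and their median was -0.05 beside 0.01 for all genes. That member was Col4a3, at 49.4 CPM (34 UMIs in 10.9% of barcodes) and 105 CPM (101 UMIs in 22.8%), or 1.09 on the log2 scale (0.52 to 1.70). It remained between 0.90 and 1.17 under all 9 alternatives run on it. The difference was also read outside the class: smooth muscle cells held Col4a3 at 15.9 and 32.9 CPM from 11 and 30 UMIs. Col4a2 had the lowest ratio among the members measured in pericytes, at -0.37 (-0.58 to -0.15), and Lama2 stood at 0.33 (0.15 to 0.50). The larger and smaller pericyte clusters made up 212 and 73 vehicle barcodes and 247 and 55 fluconazole barcodes, and within the larger cluster Col4a3 stood at 67.5 and 133 CPM.

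Smooth muscle cells (185 and 183 barcodes) had a sum of 2882 and 2687 CPM, a log2 ratio of -0.10 (-0.19 to -0.02), which became 0.0525 after thinning and -0.25 with finer clustering. Of 12 members measured 1 was higher and 1 lower, against 5.04% and 2.65% of all genes measured. The median was 0.03 for the members and for all genes measured. Elastin was the lower one, at 141 CPM (115 to 172) and 38.4 CPM (26.7 to 53.4). The log2 ratio of -1.88 (-2.48 to -1.31) rested on 98 and 35 UMIs in 37 and 22 barcodes, with 17.3% of the vehicle UMIs in 1 barcode. It lay between -2.004 and -1.46 under all 9 alternatives. Most of the class was 1 cluster of 179 and 178 barcodes, where elastin stood at 122 and 30.9 CPM. A second cluster of 6 and 5 barcodes held 14 and 7 of the UMIs, at 2135 and 959 CPM.

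Several marker sets moved beside elastin in this class. Smooth muscle markers, all 8 seen in both libraries, summed to 23220 and 19650 CPM, pericyte markers (8 of 8) to 9731 and 11250 CPM, and arterial endothelial markers (8 of 8) to 508 and 549 CPM. Red blood cell genes summed to 3771 CPM in the vehicle (6 of 6 seen) and 112 CPM in the fluconazole library (5 of 6). Their part in the elastin difference was not tested. Col1a2 was the higher member, at 90.8 and 144 CPM (0.66, 0.22 to 1.12), and was 0.19 when called doublets were kept and 1.08 with finer clustering.

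**Figure D4:**
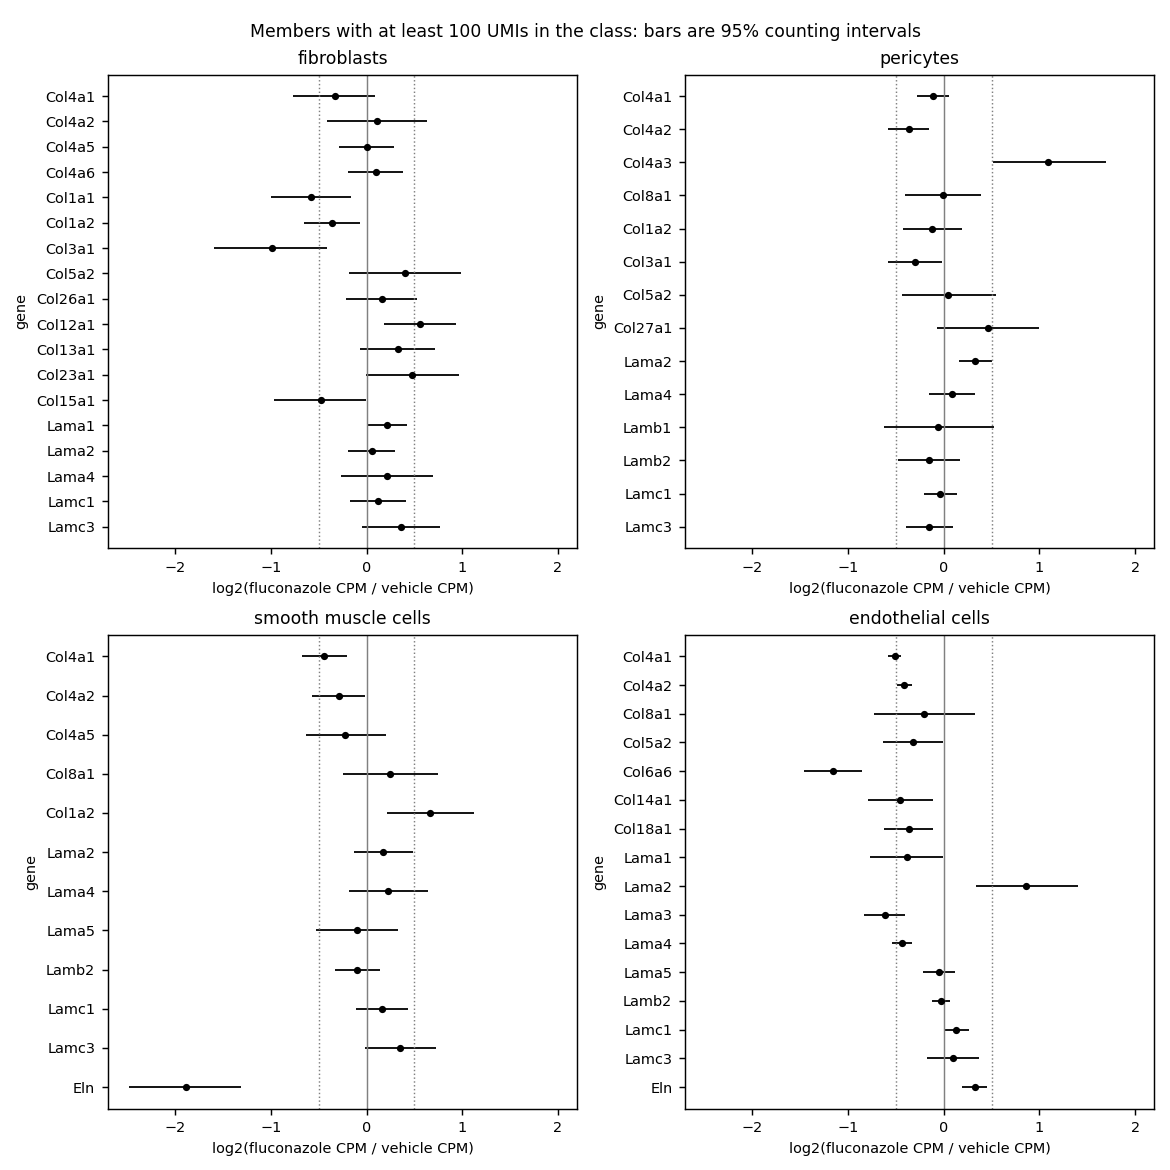
Log2 ratio of fluconazole over vehicle CPM (x axis) for each member with at least 100 UMIs in the 4 main vessel-associated classes. Bars are 95% counting intervals and dotted lines mark the threshold of 0.5. Elastin in smooth muscle cells (-1.88), Col6a6 in endothelial cells (-1.16) and Col4a3 in pericytes (1.09) lie farthest from 0.

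Endothelial cells (2811 and 2715 barcodes) read fewer matrix UMIs in the fluconazole library. The sum was 1455 CPM (1432 to 1478) with vehicle and 1198 CPM (1179 to 1218) with fluconazole (log2 ratio -0.28, -0.31 to -0.25). Of 16 members measured 1 was higher and 3 were lower, against 1.98% and 2.46% of the 11122 genes measured, and the median was -0.34 beside -0.01 for all genes. The largest contributors were the type IV chains. Col4a1 stood at 408 CPM (62.8% of barcodes) and 286 CPM (56.3%), a log2 ratio of -0.51 (-0.58 to -0.45), and -0.498 without the leading barcode of each library. Col4a2, at 309 and 233 CPM, stood at -0.41 (-0.48 to -0.34) and Lama4, at 155 and 115 CPM, at -0.43 (-0.54 to -0.33).

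The beta and gamma chains Lamb2 and Lamc1 lay nearer 0, and elastin above it. Lamb2 was at -0.03 (-0.13 to 0.06), Lamc1 was at 0.13 with an interval that included 0 (upper bound 0.26), and elastin was at 0.32 (0.19 to 0.46). Network collagens accordingly went from 50.2% to 44.5% of endothelial member UMIs, laminin beta chains from 11.7% to 13.9%, gamma chains from 6.90% to 9.14% and elastin from 5.18% to 7.87%. Pericyte markers in this class (8 of 8 seen in each library) summed to 279 and 398 CPM, and fibroblast markers (10 of 10) to 200 and 219 CPM. Smooth muscle markers (8 of 8) summed to 108 and 81.0 CPM. Acta2 among them was lower with fluconazole in each of the 8 endothelial clusters, while Myh11, also among them, went both ways. Myh11 stood at 29.1 and 14.3 CPM in the largest endothelial cluster and at 7.03 and 13.15 CPM in the venous cluster. The sums of pericyte and fibroblast markers were thus higher, and that of smooth muscle markers lower, in the library with the lower Col4a1. The part of these markers in the Col4a1 difference was not tested.

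The subsets of the endothelium differed in size by little: arterial barcodes were 22.1% and 22.4% of it, venous 6.44% and 6.78%, and the others 71.4% and 70.9%. Col4a1 was lower in the fluconazole library in each of the 8 endothelial clusters, by the least in the venous cluster (288 and 257 CPM). Among the others it stood at 410 and 268 CPM (-0.61, -0.70 to -0.53) and in arterial endothelium at 470 and 351 CPM (-0.42, -0.54 to -0.30). The difference between subsets was not tested. Past the threshold were 1 of 9 members measured in other endothelium, 1 of 12 in arterial and 3 of 9 in venous endothelium, all lower. Of all genes measured, 2.4%, 2.18% and 3.43% were lower and 2.39%, 2.6% and 3.01% higher in these subsets.

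Col6a6, a chain of the beaded type VI microfibrils, was highest in venous endothelium. It stood there at 160 CPM (47.5% of barcodes) and 65.2 CPM (27.7%), a log2 ratio of -1.30 (-1.63 to -0.97), from 228 and 119 UMIs. Over all endothelial cells it was at -1.16, and at -1.76 after thinning. Arterial endothelium held 0 and 2 UMIs. Lama1 and Col5a2 were the other lower venous members, at 67.5 and 40.0 CPM (-0.76, -1.22 to -0.30) and 46.4 and 30.1 CPM (-0.62, -1.17 to -0.08, and -1.08 after thinning). Lama1 there came to -0.49 when the member genes were used for clustering. Venous markers (7) summed to 4797 and 6005 CPM in this subset and pericyte markers (8 of 8) to 224 and 493 CPM, and their part was not tested. In arterial endothelium the lower member was Lama3, at 112 CPM (26.5% of barcodes) and 67.1 CPM (19.4%), a log2 ratio of -0.73 (-1.006 to -0.46), while over all endothelial cells it was -0.62 and -0.48 after thinning. Lama2 was the higher endothelial member but stood at only 4.34 and 7.88 CPM, beside 633 and 794 CPM in pericytes. Its log2 ratio of 0.86 was 1.72 when the microglial CPM was subtracted and 0.53 after thinning.

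In the Slc47a1 cluster (102 and 55 barcodes) the sum was 6545 and 6961 CPM (0.09, -0.01 to 0.19). Of 6 members measured 2 were higher and 1 was lower, against 8.6% and 10.5% of the 1047 genes measured. Col8a1 stood at 146 and 424 CPM (1.54, 1.014 to 2.09), Col23a1 at 970 and 1627 CPM (0.75, 0.52 to 0.97) and Col1a2 at 365 and 194 CPM (-0.92, -1.46 to -0.39). For Col1a2, 20.4% and 21.4% of the UMIs came from 1 barcode of each library. Col25a1, the leading member, differed by less than counting error (0.08, -0.09 to 0.24).

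In astrocytes 1 of 11 members measured was higher and 0 were lower past the threshold (background 1.65% and 3.75%). The higher one was Lama3, at 190 CPM (31.1% of barcodes) and 270 CPM (44.0%), a log2 ratio of 0.51 (0.32 to 0.70), which came to 0.46 with finer clustering. Lama3 thus stood higher in astrocytes and lower in arterial endothelium of the fluconazole library, and the difference between these ratios was not tested. Astrocytic Lama2 was at 608 and 537 CPM (-0.18, -0.29 to -0.06). In microglia 1 of 10 was higher and 1 lower (background 1.71% and 2.78%): Col6a3, a type VI chain, at 7.77 and 11.7 CPM (0.59, 0.25 to 0.94), and Col4a1 at its low level (-0.51, -1.02 to -0.02), which was -0.32 after thinning. Col27a1 stood at -0.08 (-0.16 to -0.01). None of 4 members measured in oligodendrocytes (background 2.54% higher and 1.73% lower) and of 3 in their precursors (8.12% and 8.02%) was past the threshold.

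Neurons were deeper in the fluconazole library, with a median of 11224 UMIs per glutamatergic barcode against 7732. Of 28 members measured in glutamatergic neurons 3 were higher and none lower (background 2.16% and 4.01%). They were the fibrillar chains Col5a1 (3.80 and 7.64 CPM, 1.0096, 0.58 to 1.45), Col24a1 (2.45 and 5.83 CPM, 1.25, 0.73 to 1.80) and Col11a1 (19.7 and 28.6 CPM, 0.54, 0.34 to 0.73). Col24a1 was 0.40 after thinning, and Col11a1 0.46 with at most 1% mitochondrial UMIs and 0.48 with doublets kept. The main neuronal members differed little, Col19a1 at 0.02 (-0.06 to 0.10) and Col25a1 at -0.04 (-0.15 to 0.06).

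GABAergic neurons had 4 higher and 0 lower members of 12 (background 2.33% and 4.31%) and a sum of 1013 and 1272 CPM (0.33, 0.26 to 0.40). Col25a1 stood at 194 and 307 CPM (0.66, 0.51 to 0.81), Col14a1, an interrupted-helix collagen, at 16.8 and 41.0 CPM (1.29, 0.82 to 1.77), Col11a1 at 0.74 (0.34 to 1.14) and Lama3 at 0.65 (0.25 to 1.05). In the fluconazole library 1 barcode held 24.2% of the Col14a1 UMIs. After thinning Col25a1 came to 0.495, Col14a1 to 1.94, Col11a1 to 0.21 and Lama3 to 0.03. GABAergic markers (8) summed to 3694 and 5063 CPM in this class, and their part was not tested. In spiny neurons 1 of 7 was higher and 1 lower (background 4.47% and 6.83%), Lamc1 at 0.61 (0.29 to 0.93) and Col11a1 at -0.88 (-1.51 to -0.28), and in neuroblasts 0 of 3 were higher and 1 lower (1.92% and 3.69%), Col4a1 at -0.53 with an interval that included 0.

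**Figure D5:**
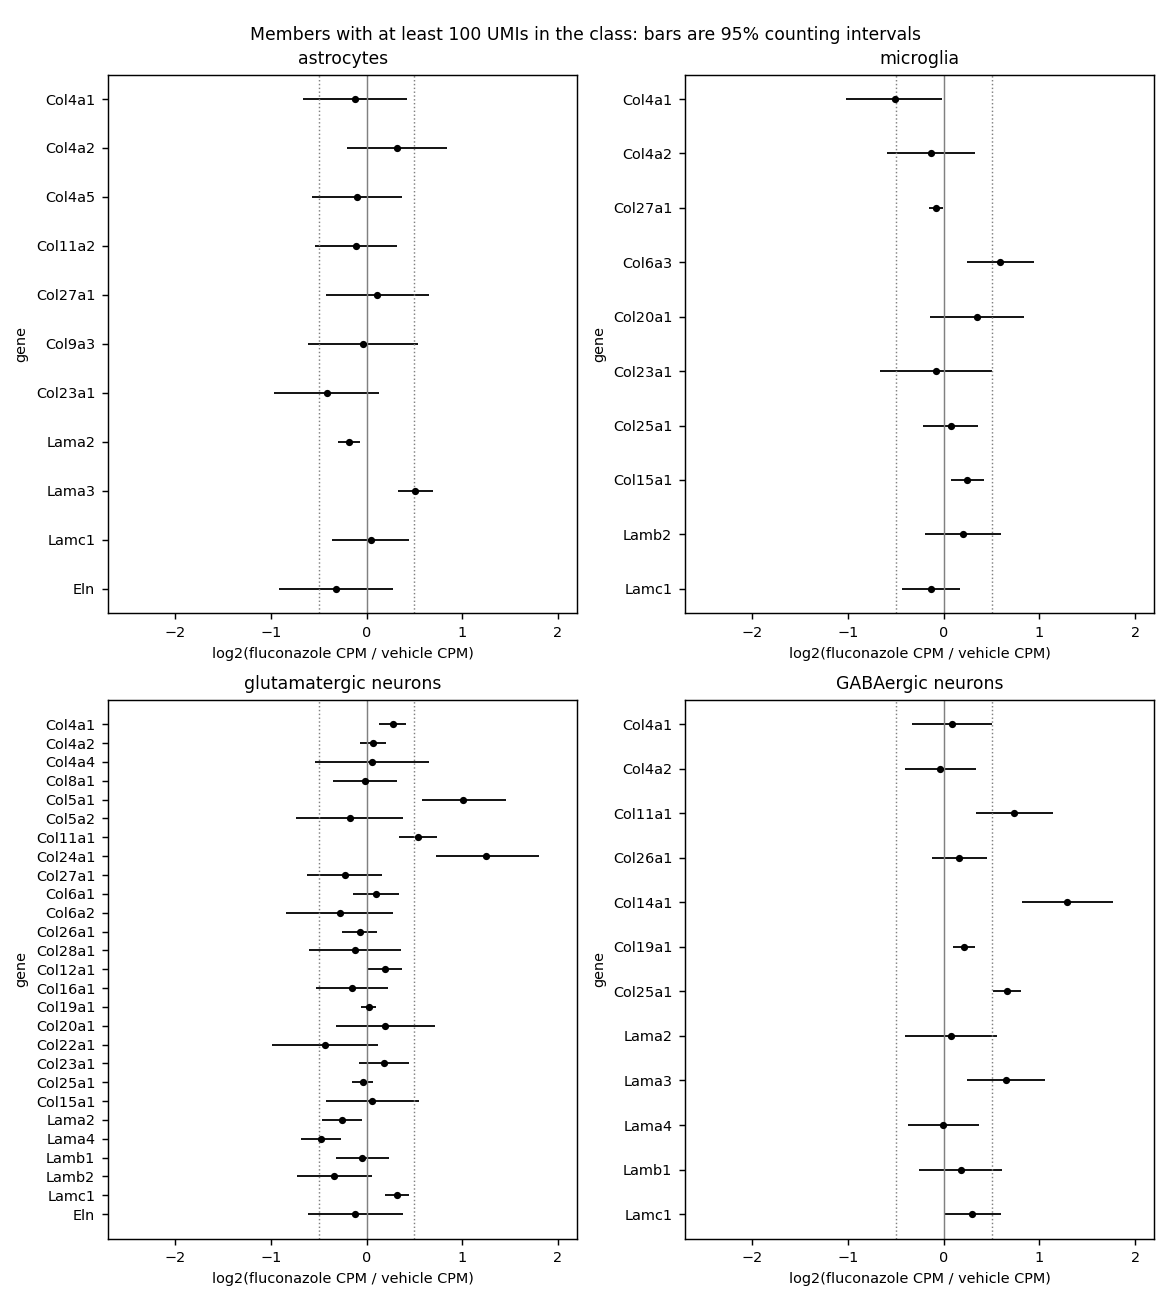
Log2 ratio of fluconazole over vehicle CPM (x axis) for members with at least 100 UMIs in astrocytes, microglia, glutamatergic and GABAergic neurons, with 95% counting intervals and dotted lines at the threshold of 0.5. All 7 members past the threshold in the 2 neuronal classes lie to the right of 0.

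Genes that fold, cleave, bind or degrade these proteins were read from 7 lists. Of all genes measured in endothelial cells, 1.98% were higher and 2.46% lower past the threshold. In endothelial cells the 12 basement membrane partners summed to 2023 and 1714 CPM (-0.24, -0.27 to -0.21). Most of this sum was Sparc, at 1604 and 1345 CPM (-0.25), and the other measured partners ran from -1.35 to 0.18 (Egflam). Of 8 measured 1 was lower, Npnt, an integrin-binding basement membrane protein, at 13.6 and 5.34 CPM (-1.35). Of the 4 measured genes of matrix breakdown, Mmp15, a membrane-bound metalloproteinase, was lower at 18.5 and 5.00 CPM (-1.89). Of 17 measured genes of collagen folding and modification none was past the threshold, and their median was -0.05. Of 5 measured elastic fibre partners 1 was lower, Ltbp1, which binds latent TGF-beta, at 7.08 and 4.75 CPM (-0.58). Among 10 measured inducers Ccn2, a matricellular protein induced by TGF-beta, was higher at 29.8 and 73.4 CPM (1.30, 1.11 to 1.49).

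In fibroblasts, by contrast, Ccn2 was at 272 and 169 CPM (-0.68, -1.17 to -0.21) and Ccn1, its close relative, at 211 and 37.6 CPM (-2.49, -3.49 to -1.62). They were 2 lower of the 5 inducers measured. Smoc1, a calcium-binding basement membrane protein, was the 1 of 4 basement membrane partners past the threshold, at 149 and 238 CPM (0.67). Of all genes measured, 8.69% were higher and 13.8% lower in fibroblasts, 3.79% and 3.91% in pericytes and 5.04% and 2.65% in smooth muscle cells. Lists this short do not show whether a list differs from these shares. In pericytes P4hb, a subunit of the enzyme that hydroxylates collagen prolines, was at 165 and 109 CPM (-0.60, 1 lower of 7 measured) and Agrn, a basement membrane proteoglycan, at 75.5 and 108 CPM (0.52, 1 higher of 5). In smooth muscle cells Pcolce, an enhancer of procollagen cleavage, was at 83.6 and 122 CPM (0.54, the only one measured of its list). None of the receptors measured was past the threshold in these 4 classes, among 4 in fibroblasts, 6 in pericytes, 6 in smooth muscle cells and 8 in endothelial cells.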

How the data were processed

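Cell Ranger 9.0.0 and the mm10 build, besides R 4.0.3 with Seurat 4.0.0, stand in the submitters' processing notes, and per the file headers the matrices were written by Cell Ranger 8.0.1. The gene annotation is not given in the sources used here. The deposited values are raw UMI counts per gene and barcode. Per the labels' protocols, nuclei came from frozen tissue, while the design text speaks of fresh tissue and of cells and nuclei together. Median mitochondrial shares (vehicle and fluconazole) were 2.37% and 2.62% in endothelial cells and 0.234% and 0.211% in glutamatergic neurons. A barcode was kept from 500 genes upward if mitochondrial UMIs made up 5% or less, and doublets called by Scrublet (617 and 517) were left out. Counts were scaled to 10000 and log-transformed. Clusters came from 2000 variable genes per library without the members, 30 principal components, 15 neighbours and Leiden at resolution 1 (scanpy 1.11.5, leidenalg 0.10.2), giving 35 clusters and, among vascular barcodes, 20. A cluster took a class name when at least 3 markers were 2-fold above the median cluster and seen in 10% of its barcodes, with the next class scoring at most 0.4 of it (related classes excepted); these naming rules were written with the clusters at hand, and 1105 and 1057 barcodes stayed unnamed. Counts were summed per class and library, and classes with under 50 barcodes in a library were not compared. Intervals were run on simulated independent Poisson counts, the model they assume. That run does not check UMIs that gather in single barcodes. The values of 1 member, which enters the counts and sums, are not reported here. The members, lists and markers were chosen with earlier results of these data known. Members with at least 500 UMIs are described by level; between libraries, those with at least 100 UMIs in a class, an absolute log2 ratio of at least 0.5 and an interval excluding 0 are named, with some of the 5 most abundant of the class; of the partner lists, those past the same thresholds, at most 4 per list. Whether intronic reads were counted is not given in the sources used here. Fewer cells or nuclei of one kind within a class and less RNA in each cannot be told apart.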

Additional observations from a re-analysis of the deposited data

How the results depend on the processing

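No paired analysis was possible because each treatment had 1 library. Summed log2 ratios stayed within counting error of the reported value under the alternatives run (in fibroblasts, where that value lay near 0, with a sign that turned to -0.01 with doublets kept and -0.04 with median-of-ratios factors), except in fibroblasts with at most 1% mitochondrial UMIs (-0.41) and in smooth muscle cells with Leiden resolution 2 (-0.25) and after thinning to 1500 UMIs (0.0525). Numbers of members past the threshold moved more. In fibroblasts (3) they were 6 with at most 1% mitochondrial UMIs, 5 with at least 1000 genes per barcode, 1 after thinning, 12 with a minimum of 20 UMIs and 0 at a threshold of 1. In pericytes (1) they were 2 with doublets kept and 5 at 20 UMIs. In smooth muscle cells (2) they were 4 with doublets kept, 1 after thinning, 8 at 20 UMIs and 1 at a threshold of 1. In endothelial cells (4) they were 2 after thinning, 11 at 20 UMIs and 1 at a threshold of 1. The shares of all genes past the threshold were not computed under these settings. These counts therefore do not set the members against a background. Of 30 named differences under 269 alternatives, 268 kept their sign and 247 also stayed past the threshold, and 16 of the 30 stayed past it throughout. The 1 reversal was Col1a1 in fibroblasts with at most 1% mitochondrial UMIs (0.25). Among abundant members below the threshold, Lama1 in fibroblasts turned to -0.97 with that filter and to -0.14 after thinning. That filter left too few pericytes, smooth muscle cells and endothelial cells for a value, and its fibroblast class shared 146 of 282 barcodes with the reported one. The causes of the other shifts were not tested. Leaving out the barcodes shared by the libraries was added after seeing the data. Depth limits the smaller classes most, as for Col3a1 in fibroblasts, whose 102 and 34 UMIs gave an interval of -1.59 to -0.42.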

Other observations

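One unnamed vascular cluster of 142 vehicle and 162 fluconazole barcodes was led by the pericyte genes Rgs5, Atp13a5 and Abcc9 together with the arterial endothelial gene Gkn3, and entered no comparison above; it was singled out after its values were seen. It held Col4a1 at 451 and 386 CPM, elastin at 71.4 and 72.1 CPM, Lama2 at 202 and 287 CPM and Acta2 at 867 and 717 CPM. The median depth of its barcodes was 1.74 relative to the library median, against 0.499 in the larger pericyte cluster. Whether its barcodes held more than 1 cell was not tested. Col4a3 stood there at 19.3 CPM from 23 UMIs in the vehicle and 44.2 CPM from 71 UMIs in the fluconazole library. The larger pericyte cluster and the smooth muscle cells had the same direction, while the smaller pericyte cluster held 2 and 1 Col4a3 UMIs. Another unnamed cluster led by Atp13a5, of 17 and 16 barcodes, was near level. It held Col4a3 at 348 and 376 CPM from 6 and 7 UMIs. Over all kept barcodes Col4a3 had 149 and 301 UMIs.

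Some members with under 100 UMIs in a class differed widely and were picked after their values were seen. In venous endothelium Lamc3 had 1 UMI in the vehicle and 31 UMIs in the fluconazole library, and Lama2 6 and 33, beside pericyte markers that summed to 224 and 493 CPM. In pericytes Col14a1 had 47 and 10 UMIs. A small unnamed vascular cluster of 33 and 29 barcodes held 33 and 3 elastin UMIs, 128 and 18.0 CPM. Smooth muscle markers moved with it there, Acta2 at 573 and 11.99 CPM from 148 and 2 UMIs and Myh11 at 228 and 18.0 CPM from 59 and 3 UMIs, and their part was not tested.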
